A study of Mus musculus with 4 samples.

Results

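Desmosomal transcripts were followed in cultured mouse epidermal stem cells (EpSCs) after 48 h with 30 μg/mL ALP, which by the title of the series is taken to stand for the polysaccharide of burdock, Arctium lappa, or with 0.06% DMSO as the vehicle control. The 10 genes were taken by name from the deposited table: the desmogleins Dsg1a, Dsg1b, Dsg2 and Dsg3, the desmocollins Dsc1, Dsc2 and Dsc3, corneodesmosin (Cdsn), plakophilin 1 (Pkp1) and desmoplakin (Dsp). All 10 of them are among the 54532 genes of the table, and all 10 passed the low-count filter that left 14056 genes for testing. The cells, isolated from C57BL/6 mouse skin, grew in EpiLife medium with HKGS supplement, and each group held 2 libraries, named A and B here. Nothing in the labels ties the libraries of a group to separate cultures or animals. P-values then measure only the spread between these samples, and that spread may be technical. Whether DMSO was also added to the ALP cultures is not stated.

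Desmosomes are adhesive junctions that tie the keratin filaments of neighbouring keratinocytes together. Desmogleins and desmocollins are cadherins that bridge the gap between cells, and plakoglobin and plakophilins link their tails to desmoplakin, which binds keratins. The cadherins change with depth in the epidermis: Dsg3 and Dsc3 are the isoforms of the basal layer, Dsg1 and Dsc1 those of the suprabasal layers, and Dsg2 and Dsc2 are also found in simple epithelia. Corneodesmosin joins the junction in the uppermost living layers and turns it into the corneodesmosome of the cornified layer.

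Total gene counts lay between 15766244 and 17430345 per library. The libraries of a group were not copies of each other: the chi-square per degree of freedom over genes was 22.4 for the ALP pair and 5.92 for the control pair, against 53.6 to 147 for pairs across groups. The labelled cell type was checked against its markers. Of 8 basal keratinocyte markers 3 rose (Itga3, Itgb4 and Itga6) and 2 fell (Col17a1 and Trp63), beside 18.0% and 12.9% of all tested genes. The keratins Krt5, Krt14 and Krt15 were below both controls in both ALP libraries but did not pass edgeR's test. The 8 markers summed to 37547 and 31687 CPM (counts scaled to library depth by the TMM method) in the ALP libraries and to 48762 and 49051 CPM in the controls. The 7 fibroblast markers summed to at most 8.79 CPM in the ALP libraries and 18.0 CPM in the controls, with Lum at 0, and the 6 immune markers to at most 7.29 CPM in the ALP libraries and 10.2 CPM in the controls, with Cd3e and Cd207 at 0. The 6 melanocyte markers summed to 69.6 and 57.9 CPM in the ALP libraries and to 73.3 and 67.2 CPM in the controls, and 5 endothelial markers to 15.1 and 25.1 CPM in the ALP libraries and to 6.23 and 7.77 CPM in the controls. Among these lists Dcn of the fibroblast markers, Mitf of the melanocyte markers and Tek of the endothelial markers fell, Kdr and Pecam1 of the endothelial markers rose, and no immune marker passed. The part of these markers in the desmosomal results was not tested.

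Transcripts of 3 members fell after ALP, corneodesmosin, the basal desmocollin Dsc3 and desmoplakin, and 0 members rose. The suprabasal cadherins Dsg1a, Dsg1b and Dsc1 were below the controls in both ALP libraries, but by very different amounts in each, and did not pass. Dsg3, Dsg2 and Dsc2 lay between -0.27 and 0.24 from the control mean on the log2 scale in both ALP libraries. The calls are those of edgeR's quasi-likelihood test, Benjamini-Hochberg adjusted over all genes tested, at an adjusted p under 0.05. That test called 12.9% of all tested genes lower and 18.0% higher, 30.9% in all, so 3 of 10 members lower is to be read against the first share. No member was higher at an unadjusted p under 0.05 either, or in DESeq2's Wald test or limma-voom. DESeq2's Wald test called 4 members lower, with Pkp1 added, beside 12.5% of all genes it tested. Limma-voom called 7 lower, with Dsg1a, Dsg1b, Dsc1 and Pkp1 added, beside 15.1%. Both ALP libraries were below both controls for 8 members and above them for 1, whereas 37.5% of all tested genes had both ALP libraries below and 38.2% had both above. The median log2 fold change was -0.82 over the members and 0.00 over all tested genes. The 10 genes together took 0.858% and 0.631% of all counts in ALP-treated libraries, against 1.25% and 1.16% in the controls. In bulk samples, fewer cells of a type and less RNA per cell cannot be told apart.

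**Figure D1:**
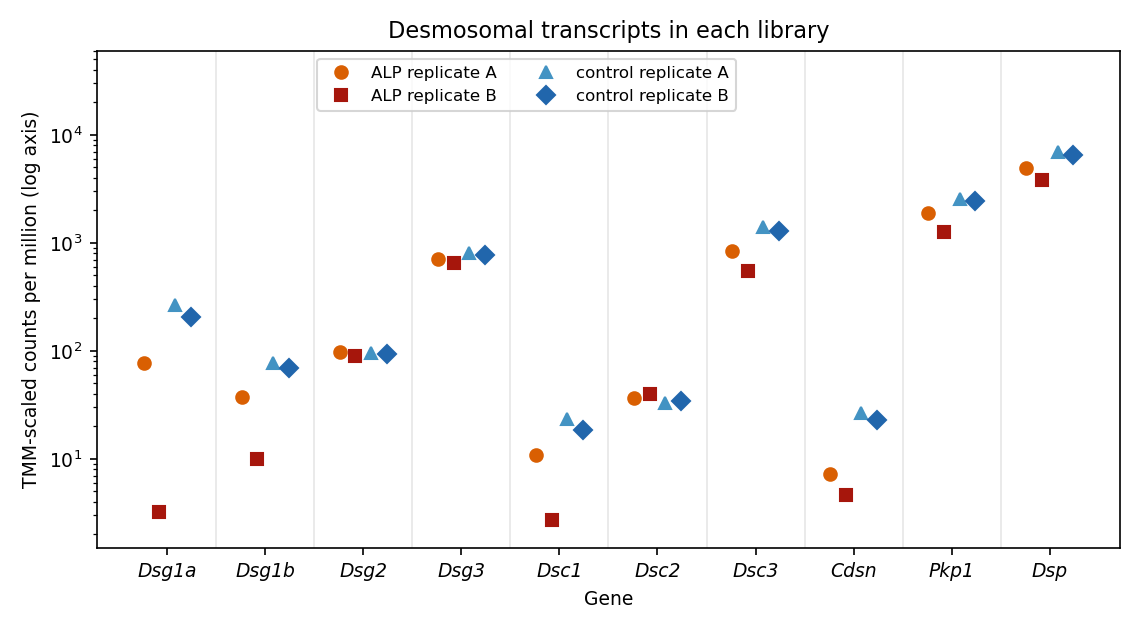
TMM-scaled CPM of the 10 desmosomal genes on a log axis, with 1 point per library. Dsg1a measured 76.8 and 3.23 CPM in ALP-treated libraries, against 264 and 205 CPM in the controls, while the points of Dsg2 lie between 89.3 and 97.7 CPM in all libraries.

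The suprabasal desmoglein Dsg1a had the widest spread between the ALP libraries among the members. Dsg1a (chromosome 18, 20310811 to 20343350, plus strand, GRCm38) had 1328 and 50 counts in ALP replicates A and B, against 4656 and 3596 counts in control replicates A and B. Scaled to depth these are 76.8 and 3.23 CPM in ALP and 264 and 205 CPM in the controls. The groups do not overlap, and ALP replicate B stands far below the other 3 libraries. ALP replicate A was at 32.8% of the control mean and ALP replicate B at 1.38%. The fitted log2 fold change was -2.55 ± 1.16 (SE, n = 2 per group) and did not pass (edgeR adjusted p = 0.141). In the authors' deposited table the log2 fold change of Dsg1a is -2.56 with an adjusted p of 0.25.

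The neighbouring copy Dsg1b (chromosome 18, 20376729 to 20410196, plus strand) had 644 and 155 counts in ALP-treated libraries, against 1375 and 1221 counts in the controls. Again the groups do not overlap and replicate B is the lowest library, here at 13.6% of the control mean, with ALP replicate A at 50.5%. Its log2 fold change was -1.64 ± 0.55 (edgeR adjusted p = 0.0697). Mice carry several close copies of the desmoglein 1 gene, and reads may fit more than 1 of them. Of the 50-base stretches in the annotated transcripts, 35.0% of those of Dsg1a and 48.9% of those of Dsg1b also occur in a transcript of another gene, mostly in each other. Their separate counts are to be read with that limit, and how reads were assigned between the copies was not tested. The remaining copy Dsg1c had at most 8 counts in any library and was not tested. With the counts of the 3 copies summed, the log2 fold change was -2.27 (edgeR adjusted p = 0.0961).

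Dsg3, the main desmoglein of basal keratinocytes and the antigen of human pemphigus vulgaris, was at 89.1% and 82.9% of the control mean in ALP replicates A and B. It measured 705 and 656 CPM in ALP-treated libraries, against 812 and 770.1 CPM in the controls. Both ALP libraries are below both controls, and the log2 fold change of -0.22 ± 0.09 did not pass (edgeR adjusted p = 0.124). Dsg2, the desmoglein of simple epithelia and heart muscle, measured 97.7 and 89.3 CPM in ALP and 96.3 and 94.1 CPM in the controls. Here the groups overlap (log2 fold change -0.03 ± 0.09, edgeR adjusted p = 0.844). An antisense gene shares 3.99% of its exon bases but had only 9 counts over the 4 libraries, against 6418 for Dsg2.

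Among the desmocollins the suprabasal isoform Dsc1 (chromosome 18, 20084184 to 20114871, minus strand) was scarce. It had 188 and 42 counts in ALP-treated libraries, against 412 and 324 in the controls, which are 10.9 and 2.72 CPM in ALP and 23.3 and 18.5 CPM in the controls. The groups do not overlap, and the libraries stand in the same order as for Dsg1b, with 52.0% and 13.0% of the control mean left in ALP replicates A and B. Its log2 fold change was -1.61 ± 0.56 (edgeR adjusted p = 0.0762).

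Dsc3 (chromosome 18, 19960930 to 20002351, minus strand), the basal isoform, fell. It measured 835 and 543 CPM in ALP-treated libraries, against 1413 and 1283 CPM in the controls. Every ALP value is below every control value, with ALP replicate B again the lower one. The log2 fold change was -0.97 ± 0.21 (edgeR adjusted p = 0.0262). Dsc2, the desmocollin that simple epithelia share, measured 36.6 and 40.0 CPM in ALP and 33.2 and 34.6 CPM in the controls, and it is the member with both ALP libraries on the higher side. That difference of 0.17 ± 0.11 did not pass (edgeR adjusted p = 0.253).

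**Figure D2:**
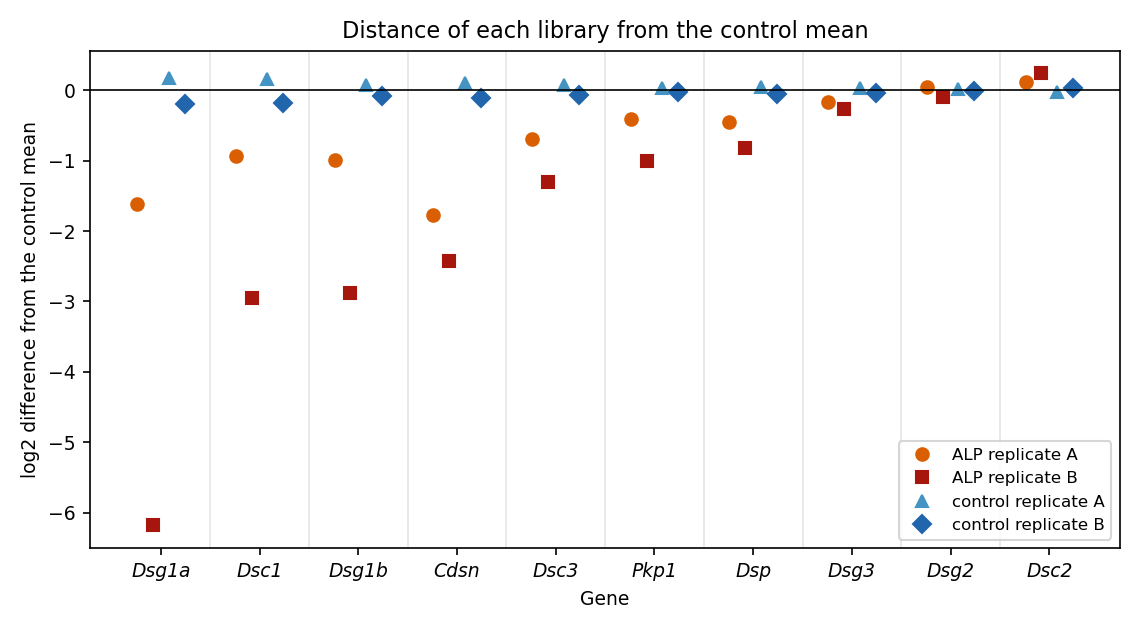
The log2 difference of each library from the mean of the 2 controls, for the 10 genes. ALP replicate B reaches -6.18 for Dsg1a, -2.95 for Dsc1 and -2.88 for Dsg1b, where ALP replicate A reads -1.61, -0.94 and -0.99, and Dsg3, Dsg2 and Dsc2 stay near 0 in both.

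The suprabasal isoforms were set against the basal ones per library, on the scale of CPM per kilobase of the deposited gene length. The summed level of Dsg1a and Dsc1 was 4.80% and 0.425% of the summed level of Dsg3 and Dsc3 in the ALP libraries A and B, against 11.1% and 9.37% in the controls. The log2 ratio averaged -6.13 ± 2.47 in ALP and -3.29 ± 0.17 in the controls (SD, n = 2 each), a difference of -2.83. It was -4.58 with ALP replicate A left out, -1.09 with ALP replicate B left out, and -2.12 with Dsg1a, Dsg1b and Dsg1c summed in place of Dsg1a. The 2 ALP libraries both lie below the controls, and they differ from each other by more than ALP replicate A differs from the controls. An exact two-sided permutation test over the libraries gave p = 0.333, which is the smallest value that 2 against 2 libraries allow. It is the same, also after Benjamini-Hochberg adjustment, for all 5 ratios computed.

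The difference was larger for the desmoglein pair than for the desmocollin pair. Dsg1a was at 7.87% and 0.356% of the level of Dsg3 in ALP-treated libraries, against 23.4% and 19.3% in the controls, a log2 difference of -3.67. Without ALP replicate A it was -5.90, and without ALP replicate B -1.43. With the 3 desmoglein 1 copies summed the difference was -2.58. The ratio of Dsc1 to Dsc3 moved less, at 1.39% and 0.535% in ALP and 1.77% and 1.55% in the controls, with both genes lower in ALP. Its log2 difference was -0.94, or -1.63 with ALP replicate A left out and -0.25 with ALP replicate B left out, and -0.48 with 0.5 CPM per kilobase added to both levels. Dsg1b stood at 5.48% and 1.58% of Dsg3 in ALP-treated libraries, against 9.93% and 9.38% in the controls. Between the copies, Dsg1a was at 144% of the level of Dsg1b in ALP replicate A and at 22.5% in ALP replicate B, against 236% and 205% in the controls.

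The isoforms can also be given as shares of their pool. Dsg3 made up 83.1% and 91.9% of the summed desmoglein level per kilobase in ALP-treated libraries, against 71.7% and 74.2% in the controls. The share of Dsg1a was 6.55% and 0.327% in ALP and 16.8% and 14.3% in the controls. Dsg2 took 5.72% and 6.22% in ALP and 4.23% and 4.50% in the controls, a gain in share without a gain in level. The summed desmoglein level was 206 and 174 CPM per kilobase in ALP and 276 and 253 in the controls. Among desmocollins Dsc3 made up at least 92.5% of the pool in every library. Dsc2 took 4.23% and 6.97% in ALP and 2.31% and 2.65% in the controls, and Dsc1 1.32% and 0.495% in ALP and 1.70% and 1.48% in the controls. The desmocollin pool as a whole summed to 164 and 109 CPM per kilobase in ALP, against 272 and 248 in the controls.

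**Figure D3:**
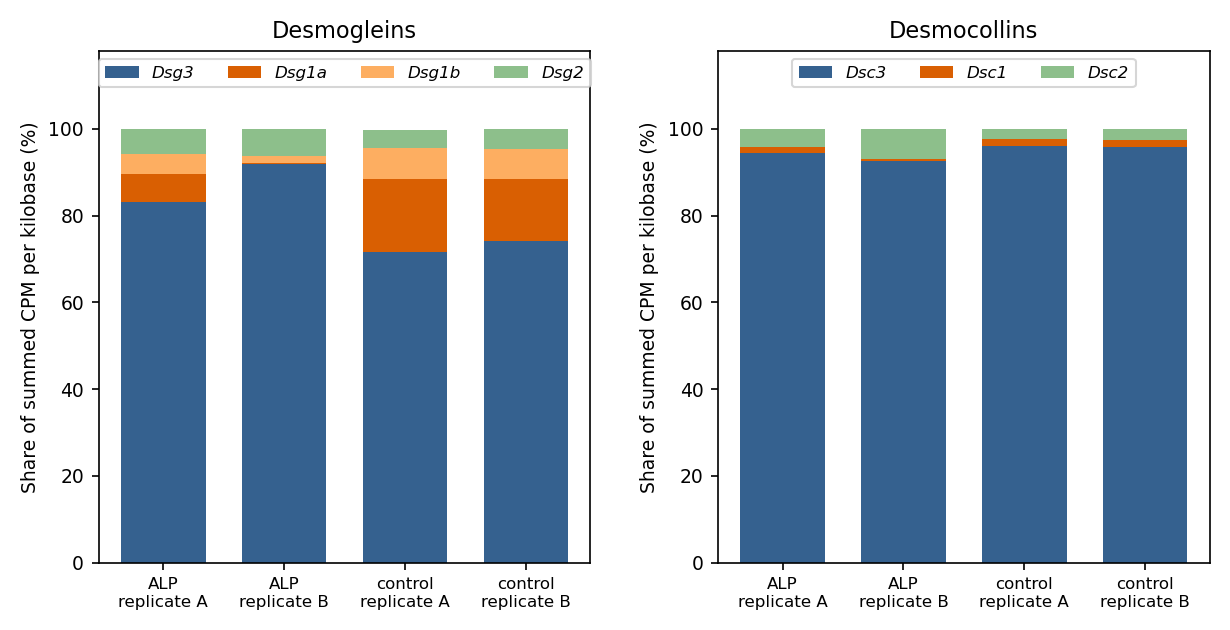
Share of each isoform in the summed CPM per kilobase of the desmogleins (left) and the desmocollins (right), 1 bar per library. Dsg1c and Dsg4, each at most 0.0591% of the pool, are not drawn. Dsg3 takes 83.1% and 91.9% in the ALP libraries and 71.7% and 74.2% in the controls.

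Corneodesmosin and the plaque protein desmoplakin are the called members outside the cadherins. Of the 10 members, 2 matched the RefSeq promoter table used here, Cdsn and Dsp, and the 250 bases before their start sites are shown because both genes were called. For Cdsn the window is the one at the start given in the deposited table. Sequences are from RefSeq, GRCm38.p6, plus strand, chr17:35551878-35552127 for Cdsn and chr13:38151044-38151293 for Dsp. Capitals mark matches to GGGCGG, the GC box, on either strand.
Cdsn: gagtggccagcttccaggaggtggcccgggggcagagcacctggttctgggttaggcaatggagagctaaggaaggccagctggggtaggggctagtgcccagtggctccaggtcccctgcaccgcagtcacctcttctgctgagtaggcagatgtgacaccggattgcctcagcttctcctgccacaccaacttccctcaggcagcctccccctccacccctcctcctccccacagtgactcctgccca
Dsp: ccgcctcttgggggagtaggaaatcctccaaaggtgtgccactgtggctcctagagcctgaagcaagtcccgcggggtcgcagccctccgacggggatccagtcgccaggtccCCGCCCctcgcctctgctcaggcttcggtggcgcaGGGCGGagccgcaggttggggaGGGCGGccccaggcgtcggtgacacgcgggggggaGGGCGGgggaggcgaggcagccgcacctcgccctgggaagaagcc
The window of Dsp holds 4 matches to GGGCGG and that of Cdsn 0, and 32.7% of the 32851 promoter windows of this length in the RefSeq table hold at least 1. Neither window holds AACCGGTT, the motif of grainyhead-like factors, which 0.116% of all windows hold. TGANTCA, the AP-1 motif, is in 6.75% and CCAAT in 33.8% of all windows, counted on both strands, and in neither of the pair shown. The GC content was 64.0% for Cdsn and 72.4% for Dsp, with a median of 52.4% over all windows.

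Cdsn (chromosome 17, 35552128 to 35557180, plus strand) had the largest decrease among the called members. It had 125 and 71 counts in ALP-treated libraries, against 467 and 399 in the controls, or 7.23 and 4.59 CPM in ALP and 26.4 and 22.8 CPM in the controls. Here both ALP libraries are below the controls and closer to each other than those of Dsg1a, at 29.4% and 18.6% of the control mean. The log2 fold change was -2.05 ± 0.24 (edgeR adjusted p = 0.0149).

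Dsp (chromosome 13, 38151294 to 38198577, plus strand), which anchors keratin filaments to the junction, was the most abundant member and ranked 35 of 14056 genes by CPM per kilobase in the controls. It measured 4944 and 3833 CPM in ALP-treated libraries, against 7002 and 6534 CPM in the controls, so that the ALP libraries kept 73.1% and 56.6% of the control mean. The groups do not overlap, and the log2 fold change was -0.62 ± 0.18 with an adjusted p just under the threshold (edgeR adjusted p = 0.0496). An antisense gene shares 5.17% of the exon bases of Dsp but had 13 counts over the 4 libraries, against 382774 for Dsp. Pkp1, which gathers desmoplakin at the plaque and ranked 57 in the controls, was lower by a similar amount. It measured 1897 and 1251 CPM in ALP and 2561 and 2463 CPM in the controls. Its groups do not overlap either, but with a wider spread between the ALP libraries the log2 fold change of -0.67 ± 0.21 did not pass (edgeR adjusted p = 0.0579). DESeq2's Wald test called Pkp1 (adjusted p = 0.00296), as does the authors' deposited table (adjusted p = 0.0029).

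The members differed in the gap between the ALP libraries. On the log2 scale ALP replicate B minus ALP replicate A was -4.57 for Dsg1a, and 0.633% of the tested genes had a gap as low or lower. For Dsc1 the gap was -2.0 and for Dsg1b -1.89, with 2.71% and 2.95% of genes as low or lower. Dsc3, Cdsn and Pkp1 had gaps between -0.66 and -0.60, and Dsp -0.37. Those of Dsg2, Dsg3 and Dsc2 were -0.13, -0.10 and 0.13, within the middle 50% of all tested genes, which ran from -0.25 to 0.19. In the controls the gap of every member lay between -0.36 and 0.06.

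**Figure D4:**
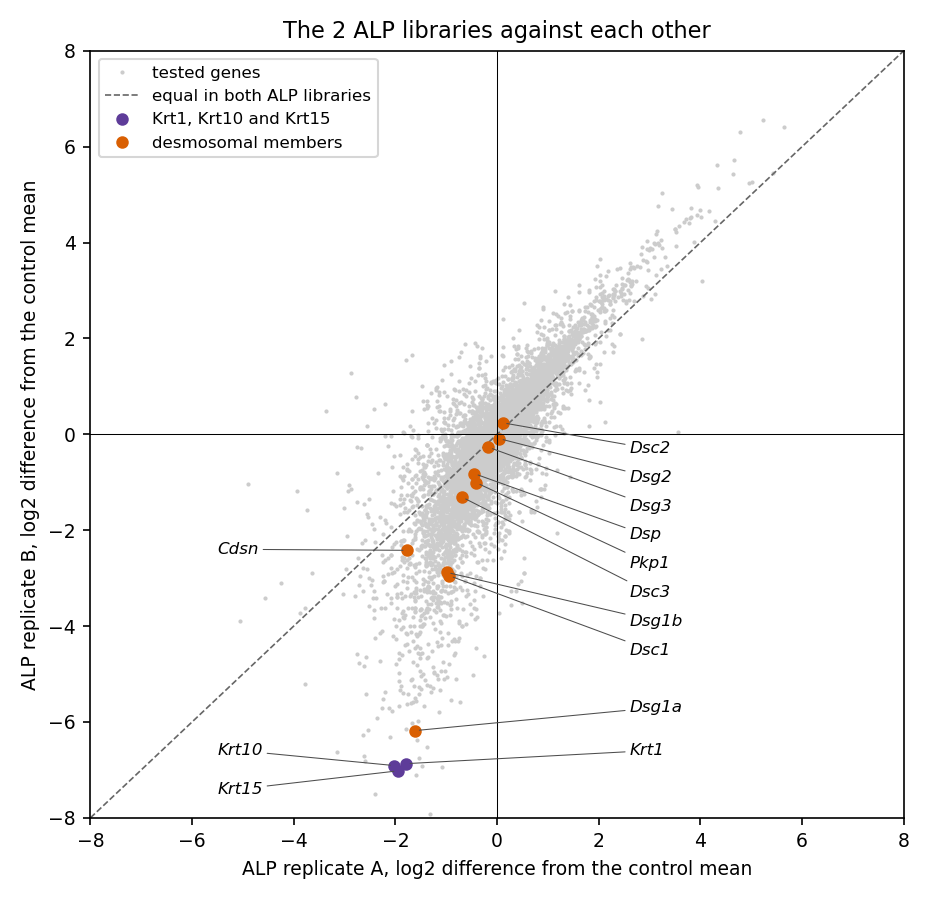
ALP replicate A (x) and ALP replicate B (y), each as the log2 difference from the control mean, for 13972 of the 14056 tested genes (84 with a 0 that leaves no log value are not drawn). Dsg1a lies at -1.61 and -6.18, near the keratin genes Krt1, Krt10 and Krt15, and far below the dashed line on which the ALP libraries would be equal.

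Several keratin genes also had a wide gap between the ALP libraries. The median log2 fold change was -2.75 over the 3 suprabasal keratin genes tested and -0.64 over the 3 basal ones. Krt1 and Krt10, the keratin pair of suprabasal cells, measured 663 and 150.1 CPM in ALP replicate A and 19.7 and 5.04 CPM in ALP replicate B, against 2511 and 669 CPM in control replicate A and 2086 and 545 CPM in control replicate B. They did not pass (log2 fold changes -2.75 ± 1.35 and -2.97 ± 1.28, edgeR adjusted p = 0.164 and 0.125), and neither did Krt77 with a largest value of 1.87 CPM. The basal keratin genes Krt5 and Krt14 had log2 fold changes of -0.64 ± 0.22 and -0.58 ± 0.22, also without passing (edgeR adjusted p = 0.0719 and 0.0982). DESeq2's Wald test called both lower (adjusted p = 1.81e-05 and 0.000747), as did limma-voom (adjusted p = 0.0152 and 0.0254). Krt15, a keratin of basal and hair follicle stem cells, had a wide gap too, at 58.4 and 1.75 CPM in ALP and 251 and 201 CPM in the controls (edgeR adjusted p = 0.120). Limma-voom called Krt15 and Krt10 lower (adjusted p = 0.0365 and 0.0423), and DESeq2's Wald test did not (adjusted p = 0.216 and 0.194).

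Of 10 other desmosomal and linked genes 8 were tested, 4 fell and 1 rose, beside 12.9% and 18.0% of all tested genes, and the median log2 fold change was -0.45. Ppl and Evpl, which encode periplakin and envoplakin of the desmosome-linked cornified envelope, fell by 1.35 and 0.79 on the log2 scale (SE 0.33 and 0.15, edgeR adjusted p = 0.0343 and 0.0189). Perp, a membrane protein of desmosomes and a p63 target, fell by 0.89 ± 0.17 to 1746 and 1288 CPM in ALP, against 2926 and 2706 CPM in the controls (edgeR adjusted p = 0.0206). Pkp3 fell by 0.37 ± 0.10 (edgeR adjusted p = 0.0439), and Pkp4, a relative of the plakophilins found at several kinds of junction, rose by 0.43 ± 0.11 (edgeR adjusted p = 0.0343). Plakoglobin (Jup) measured 1626 and 1205 CPM in ALP and 2063 and 2026 CPM in the controls and did not pass (edgeR adjusted p = 0.0580), but was called lower by DESeq2's Wald test and limma-voom (adjusted p = 0.00600 and 0.0385). Pkp2, the plakophilin of simple epithelia and heart, had a log2 fold change of 0.24 and did not pass (edgeR adjusted p = 0.148). Dsg4, the desmoglein of the hair shaft, had at most 10 counts and was not tested.

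Of 10 adherens junction genes tested 2 rose and 0 fell, beside 18.0% and 12.9% of all tested genes, with a median of 0.01. Afdn rose by 0.77 ± 0.13 and Nectin1 by 0.40 ± 0.10 (edgeR adjusted p = 0.0160 and 0.0372). At an unadjusted p under 0.05 Nectin2 and Nectin4 were lower (log2 fold changes -0.26 and -0.76) and Ctnna1 and Vcl higher (0.31 and 0.33). DESeq2's Wald test and limma-voom each called Nectin4 lower (adjusted p = 0.0173 and 0.0415) and Ctnna1 higher (adjusted p = 0.0428 and 0.0459). E-cadherin (Cdh1) measured 1026 and 868 CPM in ALP and 1069.9 and 1148 CPM in the controls, and P-cadherin (Cdh3) 273 and 261 CPM in ALP and 274 and 276 CPM in the controls. Of 5 simple epithelial markers 4 were tested and all 4 rose, beside 18.0% of all tested genes. Krt18 rose by 3.69 ± 0.38, Krt8 by 2.91 ± 0.53, Epcam by 1.88 ± 0.23 and Krt7 by 1.08 ± 0.21 (edgeR adjusted p at most 0.0204). The control libraries differed for Krt8, with 20 and 70 counts in control replicates A and B, a log2 gap of 1.82. Krt19 had at most 6 counts in any library, with 3 in each ALP library, and was not tested. The 5 markers of that list summed to 489.8 and 679 CPM in ALP, against 132 and 191 CPM in the controls and most of it came from Epcam. Their part in the desmosomal results was not tested.

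Enzymes that cut corneodesmosomes, and their inhibitors, changed in both directions. Of 10 tested genes 3 fell and 2 rose, beside 12.9% and 18.0% of all tested genes, with a median log2 fold change of -0.18. Klk8, a kallikrein protease gene, rose by 1.31 ± 0.17 (edgeR adjusted p = 0.0149), and Ctsl, which encodes cathepsin L, by 0.57 ± 0.14 (edgeR adjusted p = 0.0317). Spink5, whose product LEKTI inhibits kallikreins, fell by 1.51 ± 0.30 to 27.8 and 15.1 CPM in ALP, against 68.8 and 53.4 CPM in the controls (edgeR adjusted p = 0.0212). Cst6, a cathepsin inhibitor gene of the cornified layer, fell by 1.70 ± 0.30 (edgeR adjusted p = 0.0176). Klk5, which starts the kallikrein cascade, was at or below 1.14 CPM in all libraries (edgeR adjusted p = 0.0482, lower in ALP). DESeq2's Wald test and limma-voom did not call Klk5 (adjusted p = 0.207 and 0.0567) and called Klk7 lower (adjusted p = 0.0117 and 0.0365).

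Transcription factors linked to junction and barrier genes were lower where they changed. Of 12 tested 4 fell and 0 rose, beside 12.9% and 18.0% of all tested genes. The median was -0.57, and none was higher at an unadjusted p under 0.05. DESeq2's Wald test and limma-voom called none higher, and both added Ovol1 and Tfap2a as lower. DESeq2's Wald test also called Zfp750 lower (adjusted p = 0.0144), and limma-voom did not (adjusted p = 0.0504). Trp63, the p63 gene that maintains the epidermal lineage, fell by 0.61 ± 0.14 (edgeR adjusted p = 0.0304) and Gata3 by 0.68 ± 0.19 (edgeR adjusted p = 0.0455). Cebpa fell by 1.45 ± 0.39 (edgeR adjusted p = 0.0405). Grhl1, a grainyhead-like factor needed in mice for normal desmoglein 1 levels, fell by 1.46 ± 0.42 (edgeR adjusted p = 0.0491). Limma-voom called Grhl1 (adjusted p = 0.0279), and DESeq2's Wald test and the older quasi-likelihood method of edgeR did not (adjusted p = 0.0704 and 0.0503). The ALP libraries A and B stood at 52.2% and 20.1% of the control mean, with ALP replicate B again the lowest library.

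The genes with the pattern most like that of Dsg1a were Them5, Cyp4b1, Naaladl2 and Sostdc1, at distances of 0.16 to 0.18 over the 4 libraries on a centred log2 CPM scale, among 12179 other protein-coding genes with a count in every library. Sostdc1, a secreted antagonist of BMP and Wnt signals, measured 114 and 5.30 CPM in ALP and 362 and 311 CPM in the controls, while the other 3 had at most 13.9 CPM in any library and, in ALP replicate B, no more than the 3 counts taken as the floor of detection. Those nearest to Dsg3 were Arhgap21, Prkci, Rnf216 and Slc38a2, at distances of 0.01 to 0.02 and with log2 fold changes of -0.21 each. The likeness rests on 4 libraries and is a description.

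The call count of the members depended on single libraries. When control replicate A or control replicate B was dropped, edgeR called 0 members and 0 genes, while 2 members (A dropped) and 4 members (B dropped) were lower at an unadjusted p under 0.05. Without ALP replicate A it called 8 members lower, beside 24.6% of all genes tested, and without ALP replicate B 7, beside 14.9%, in fits whose spread comes from the control pair alone. Dsg1a had a log2 fold change of -6.18 in the fit without ALP replicate A and of -1.60 in the fit without ALP replicate B, Dsg1b -2.89 and -0.97, Dsc1 -2.95 and -0.93, Pkp1 -1.01 and -0.39, Dsc3 -1.32 and -0.68, Cdsn -2.43 and -1.76, and Dsp -0.83 and -0.44. For the basal desmoglein Dsg3 the values of these fits were -0.28 and -0.16.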

How the data were processed

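RNA sequencing was compared between 2 ALP and 2 vehicle control libraries of EpSCs. The deposited table holds raw counts per gene, and HISAT2 2.0.5 and featureCounts 1.5.0-p3 are named per the submitters' processing notes, which also name build GRCh38. The IDs are mouse IDs: 99.8% are in GENCODE M21 (GRCm38), 98.3% of those with the coordinates given there, and 9 of the 10 members among them. Log2 fold changes with p-values from the authors' deposited table are printed only where named as theirs. The table's 4 other per-library columns, the authors' FPKM, give no value reported here. The sources used here do not state whether counting used strand.

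Counts were tested with edgeR 4.0.16 (R 4.3.3; TMM scaling, filterByExpr with a minimum count of 10 and total of 15, quasi-likelihood fit with legacy = FALSE), as ALP over control, with p-values adjusted by Benjamini-Hochberg over all genes tested. The common biological coefficient of variation was 0.144 on 2 residual degrees of freedom. The SE of a log2 fold change is its size divided by the square root of F. DESeq2 1.42.0 and limma 3.58.1 (voom) were alternatives. The fits were run on simulated data with the same biological coefficient of variation for every gene and both groups. Those data do not show how the tests behave when, as here, the ALP pair varies more than the control pair. CPM per kilobase divides CPM by the gene length in the deposited table. For Dsg3 that length is 4108 bases, while its GENCODE M21 transcripts hold 6915 different 50-base stretches. What this difference means for the level per kilobase of Dsg3 was not tested. A floor of 3 counts is 0.172 to 0.190 CPM, counting error only. The members and lists were chosen with earlier results of these data known. Named are all members and, of each list, the up to 4 genes with the smallest p-values and the 4 nearest patterns. Pkp2, Pkp3, Jup, Dsg4, Cdh1, Cdh3, Nectin2, Vcl, Klk5, Klk7, Ovol1, Tfap2a and Zfp750 were named after their values were seen. So were the marker genes beyond those 4. Columns carry replicate numbers other than the labels do, so the letters A and B are names only.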

Additional observations from a re-analysis of the deposited data

How the results depend on the processing

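Over the alternatives, 98 of 99 member values kept their direction. The exception was Dsg2, which ranged from -0.10 to 0.05 with 1 library left out, the 0.05 without ALP replicate B. Dsg2 is also the only member whose groups overlap. For the others, dropping 1 library could hardly reverse the direction, so the count says little about stability. Among marker genes Col1a1 ranged from -0.28 to 0.42, turning to -0.28 without ALP replicate A and to -0.07 without control replicate A, and Pdgfra from -0.21 to 0.81, turning to -0.21 without control replicate A. Counts of calls were less stable. Without the low-count filter, and at an adjusted p under 0.01, edgeR called 0 members lower, 0 other desmosomal genes in either direction and 0 genes lower or higher in all. Unfiltered, 7068 genes had an unadjusted p under 0.05, and Cdsn, Dsp and Dsc3 had adjusted p = 0.0524, 0.0679 and 0.0733. Limma-voom called 7 members lower (15.1% of all genes lower), adding Dsg1a, Dsg1b, Dsc1 and Pkp1 (adjusted p = 0.0447, 0.0324, 0.0386 and 0.0388), and its log2 fold change of Dsg1a was -3.78. With 1 library left out in turn, edgeR called 0 to 8 members lower, 0 to 5 other desmosomal genes lower and 0 to 2 higher, and 0 to 3646 genes lower and 0 to 3872 higher over all genes. The 0 counts came without either control, where 3380 and 4131 genes had an unadjusted p under 0.05, against 6552 with all libraries. A lone library is then assumed to vary like the other group, and the cause of the lost calls was not tested. The adjusted p ranged from 1.44e-10 to 0.128 for Cdsn, from 1.47e-06 to 0.159 for Dsc3 and from 0.000298 to 0.291 for Dsp. The older quasi-likelihood method of edgeR, added after seeing the data, called 1705 genes lower and 2483 higher, with 3 members lower, and Krt5 and Krt14 were called lower (adjusted p = 0.0234 and 0.0383) and Cyp4b1 was not (adjusted p = 0.0555). Low counts limit Dsc1, Dsg1a and Cdsn, with 42, 50 and 71 counts in ALP replicate B. No paired analysis was possible because the columns of the groups share only 1 replicate number. Ratios from the authors' FPKM were also computed but are not reported, since columns matched only to a group were kept for 1 measure, the counts.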
